A study of Mus musculus with 11 samples.

Results

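The genes described here are 10 ligands and receptors of the vessel guidance systems. They are the ephrins *Efnb1* and *Efnb2*, the ephrin receptor *Ephb4*, the Robo family receptors *Robo1* and *Robo4* and the netrin family receptor *Unc5b*. The others are the plexins *Plxnd1* and *Plxna2* and the semaphorins *Sema3g* and *Sema6a*. All 10 were chosen by name, as the rows of the count table whose Entrez gene number maps to these symbols. Each was found among 27179 rows. Each passed the filter on low counts and was tested among 11949 genes. The libraries were made from CD31hi EMCNhi endothelial cells (ECs) that were sorted from the bone marrow (BM) of wild-type BALB/c mice. By the authors' methods, hematopoietic cells were excluded by antibody in this sort. ECs of tumour-infiltrated marrow (met, 3 libraries) and of neighbouring tumour-free marrow (non-met, 6 libraries) came from bones of mice carrying the 4T1.2 mammary tumour line marked with red fluorescent protein, by which the areas were dissected, and ECs of age-matched mice without a tumour gave 2 control libraries. Animals were pooled: the 9 libraries of tumour-burdened mice came from 4 pools, of which pool 1 gave 2 non-met libraries, pool 2 gave 2 non-met and 1 met library, and pools 3 and 4 gave 1 of each.

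Guidance cues were first described in growing axons, and endothelial tip cells read the same cues when a sprout chooses its path. Ephrin-B ligands are membrane proteins that signal on contact with Eph receptors of a neighbouring cell, and ephrin-B2 and EphB4 are textbook markers of arteries and veins, respectively. Robo, Unc5 and plexin receptors mostly relay repulsive or stabilising signals, and the semaphorins are the ligands of plexins, with neuropilins as co-receptors for the secreted class 3 members. In healthy bone, the CD31hi EMCNhi vessels, also called type H, lie near the growth plate and are associated with bone formation. The paper reports that vessels inside metastases were high in both markers but lacked the osteoprogenitors and pericytes found along type H vessels. It proposes that the remodelled network is a mixture of type H and sinusoidal vessels.

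Total counts ranged from 733342 to 19539761 per library, with the 3 lowest totals in non-met 4, 6 and 5. Levels are given as CPM, that is counts scaled to the total of the tested genes times its TMM factor. At these depths a count of 0 allows up to 0.147 CPM in control 1 and up to 5.43 CPM in non-met 4, taking 3 reads as the upper limit and counting error only. All 20 general endothelial markers, *Pecam1*, *Emcn* and *Robo4* among them, had reads in each group. Together they made up 20780 to 26980 CPM in met, 14350 to 26870 in non-met and 14040 to 20700 in control libraries. Met lay above control by a narrow gap, with 20780 CPM in met 1 against 20700 in control 1. The sort marker *Pecam1* alone had 2297 and 1247 CPM in these libraries, a larger difference than that gap. Summed granulocyte markers (17 genes) reached 404 to 5533 CPM in non-met libraries against 95.5 to 207 in met and 206 to 371 in controls, and summed stromal markers (18 genes) were 4246 to 11000 CPM in controls, 1374 to 4748 in non-met and 549 to 3237 in met libraries. Summed epithelial markers set control 1 and non-met 1 apart, with 1.03 and 1.44 CPM against 11.8 to 146 in the other libraries, and a fit with a term for these sets is given where it ends a call. The mitochondrial share of counts was 6.72 to 17.8% in non-met, 5.40 and 6.20% in control and 4.33 to 9.56% in met libraries, so that non-met lay above control. Summed megakaryocyte and platelet markers (8 genes) were 83.3 to 124 CPM in met libraries and at most 59.5 CPM in the others. The part of the mitochondrial, endothelial, granulocyte, stromal and megakaryocyte signals in any difference below was not tested, and in such bulk libraries fewer cells of a type cannot be told apart from less RNA per cell.

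Per kilobase of transcript (RPKM, mean log2 level over the 11 libraries), *Plxnd1* was highest at 7.84, followed by *Robo4* at 7.63 and *Ephb4* at 7.30. *Sema6a* (5.07), *Efnb2* (4.90), *Efnb1* (4.68), *Sema3g* (4.22) and *Plxna2* (3.78) lay in the middle, and *Unc5b* (2.71) and *Robo1* (1.87) were lowest on the same scale. Neighbours in this order differed by less than the standard deviation (SD) over libraries of either gene, other than *Ephb4* and *Sema6a*, whose gap exceeded both SDs, and *Plxna2* and *Unc5b*, whose gap exceeded that of *Plxna2*. The SD of log2 CPM was lowest for *Plxnd1* (0.38), *Robo4* (0.49) and *Sema6a* (0.54) and highest for *Robo1* (2.93), *Efnb1* (2.79) and *Unc5b* (2.23). That of *Efnb1* was above 96.7% of 1126 genes of like level.

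**Figure D1:**
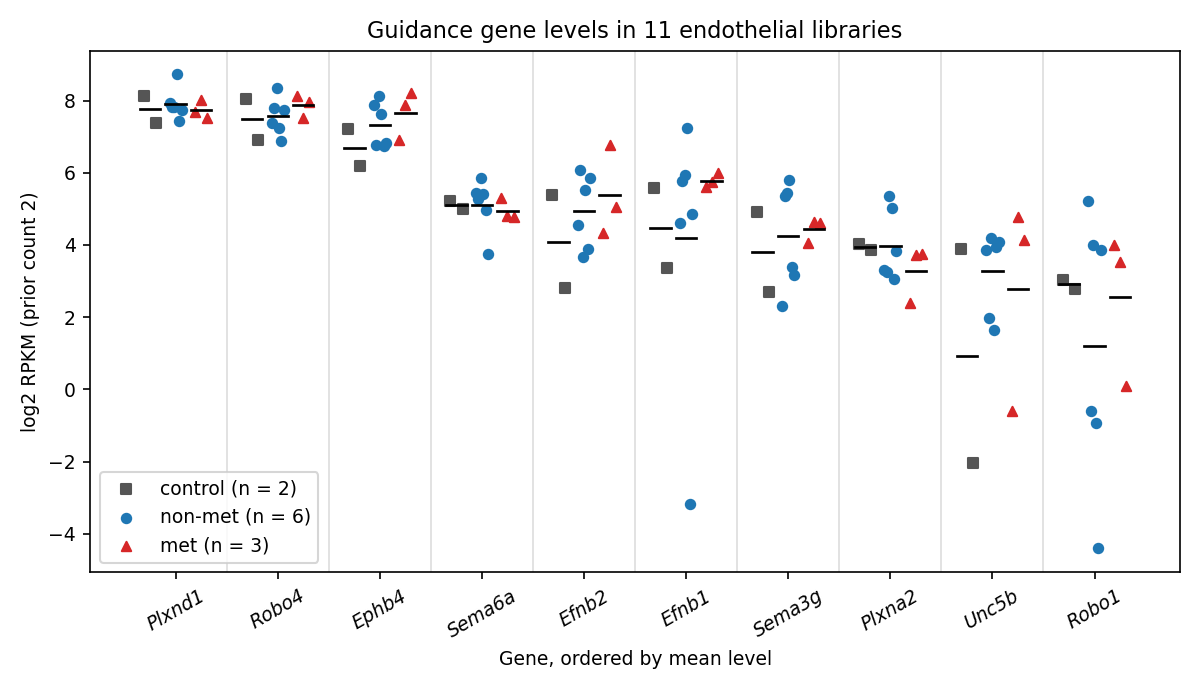
Level of each guidance gene in every library, as log2 RPKM (vertical axis), with genes ordered by their mean from left to right; squares are control (n = 2), circles non-met (n = 6) and triangles met libraries (n = 3), and black lines are group means. *Plxnd1*, *Robo4* and *Ephb4* form a high, narrow group. Far below the rest lie non-met 5 for *Efnb1*, and control 2 and met 1 for *Unc5b*. *Robo1* is low in non-met 2, 4 and 5 and in met 3.

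The promoters shown are those of the 3 genes with the highest mean level per length. Of these, 2, *Ephb4* and *Plxnd1*, also carried the calls described below. RefSeq promoter windows of 300 bases (GRCm38.p6) were matched for 9 of the 10 genes. Those of *Robo1* (chr16:72662899-72663198) and *Plxnd1* lie wholly inside the genes' RefSeq spans and do not reach their first base, and the search covered these windows only. Capitals mark AGGAAG, a core of ETS factors that act at many endothelial promoters, and GGGCGG or its reverse complement CCGCCC, an Sp1 box, with both strands searched; ETS letters on the other strand read CTTCCT.
Plxnd1: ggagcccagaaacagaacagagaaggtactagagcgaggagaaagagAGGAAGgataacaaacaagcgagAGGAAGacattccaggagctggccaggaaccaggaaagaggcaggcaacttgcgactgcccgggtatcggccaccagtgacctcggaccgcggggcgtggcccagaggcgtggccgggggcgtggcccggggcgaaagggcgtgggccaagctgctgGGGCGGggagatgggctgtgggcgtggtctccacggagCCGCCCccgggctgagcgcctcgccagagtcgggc
Robo4: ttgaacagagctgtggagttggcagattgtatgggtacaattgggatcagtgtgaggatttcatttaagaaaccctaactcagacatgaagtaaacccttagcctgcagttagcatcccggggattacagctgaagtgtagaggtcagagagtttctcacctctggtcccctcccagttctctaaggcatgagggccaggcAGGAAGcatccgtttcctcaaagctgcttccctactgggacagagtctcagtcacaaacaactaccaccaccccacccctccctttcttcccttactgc
Ephb4: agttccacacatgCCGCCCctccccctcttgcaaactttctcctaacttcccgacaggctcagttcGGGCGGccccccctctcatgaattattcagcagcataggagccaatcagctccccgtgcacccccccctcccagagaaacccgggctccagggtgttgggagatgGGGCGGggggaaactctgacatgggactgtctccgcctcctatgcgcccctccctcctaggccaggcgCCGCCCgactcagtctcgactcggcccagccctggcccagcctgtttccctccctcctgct
These windows lie at chr6:115994956-115995255 on the minus strand, chr9:37401722-37402021 on the plus strand and chr5:137349859-137350158 on the plus strand, respectively. The ETS letters were present 2 times in the *Plxnd1* window, 1 time in that of *Robo4* and 0 times in that of *Ephb4*, and the Sp1 letters 2, 0 and 4 times. Of 32851 promoter windows of this length, 35.4% held the ETS letters and 35.7% the Sp1 letters, so such matches were common. Over the 9 windows, 4 held the ETS letters (*Efnb1*, *Robo4*, *Plxnd1*, *Sema3g*) and 6 the Sp1 letters (*Efnb2*, *Ephb4*, *Unc5b*, *Plxnd1*, *Plxna2*, *Sema3g*). A match is a description of the letters and not evidence of binding.

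The main question of the design is whether ECs inside the tumour-infiltrated marrow differ from those next to it. Positions given with each gene are RefSeq spans on GRCm38.p6, and none of the 10 spans overlaps another gene of the count table. None of the 10 guidance genes passed the test between met and non-met libraries (voomLmFit, adjusted P under 0.05), where 0.418% of all tested genes did. The edgeR quasi-likelihood test, DESeq2 and limma-trend also called 0 of the 10, against 0.142%, 3.23% and 0.0167% of all genes. In every one of the 10 genes the 3 met libraries overlapped the 6 non-met libraries, while 1.98% of all genes had groups that did not overlap. At an unadjusted P under 0.05, 2 genes passed, *Ephb4* and *Plxnd1*, against 7.24% of all genes. The fitted log2 fold change was above 0 for 7 genes and below 0 for 3, where 51.8% of all genes were above 0, with a median of 0.35 against 0.075 over all genes.

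Among the ephrins, *Efnb1* (chrX:99136061-99149022), which encodes a transmembrane ligand of EphB receptors, had 157, 175 and 208 CPM in met 1 to 3, 156 and 33.1 CPM in the controls, and 0, 135 and 496 CPM as the lowest, median and highest of the non-met libraries. The met libraries lay close together inside the wide non-met range and just above both controls. The fit gave a met over non-met log2 fold change of 1.07 (SE 0.97) (edgeR voomLmFit, adjusted P = 0.821). It was 0.40 without non-met 5 and -0.56 with the mouse pool as a fixed block. Non-met 5 held 0 *Efnb1* reads, which allows up to 1.59 CPM, whereas the other library of the same pool, non-met 1, held 443 reads.

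*Efnb2* (chr8:8617235-8661242), the arterial ephrin, had 87.2, 467.5 and 144 CPM in met 1 to 3, 54.8, 150.1 and 294 CPM as lowest, median and highest non-met values, and 180.1 and 29.7 CPM in the controls. Met 2 was the highest library and control 2 the lowest, and all groups overlapped. Fitted as met over non-met, its log2 fold change was 0.57 (SE 0.71, edgeR voomLmFit, adjusted P = 0.891).

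*Ephb4* (chr5:137350109-137374522), the receptor for ephrin-B2 and a marker of veins, had 518, 1031 and 1283 CPM in met 1 to 3, 468, 675 and 1223 CPM as lowest, median and highest non-met values, and 644 and 317 CPM in the controls. Met 3 was highest and control 2 lowest, and met 1 lay within the lower range of the non-met libraries. Fitted as met over non-met, its log2 fold change was 0.79 (SE 0.25, unadjusted P = 0.00459, edgeR voomLmFit adjusted P = 0.343), and the unweighted means differed by 0.33 (exact two-sided permutation test over 84 splits, P = 0.440). Per length, *Efnb2* was below *Ephb4* in all 11 libraries, by 0.69 (non-met 2) to 4.46 (non-met 3) on the log2 RPKM scale.

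*Robo4* (chr9:37401902-37414023), an endothelial Robo family member, had 1028, 672 and 924 CPM in met 1 to 3, 436, 698 and 1201 CPM as lowest, median and highest non-met values, and 969 and 444 CPM in the controls. *Robo1* (chr16:72027518-73047491), a receptor for Slit proteins, had 122, 87.5 and 7.69 CPM in met 1 to 3, 61.8 and 51.5 CPM in the controls, and 0, 57.0 and 284 CPM as lowest, median and highest non-met values. *Robo4* varied little between libraries, whereas *Robo1* was at 0 reads in non-met 5 and 2 reads in non-met 4 but at 1575 reads in non-met 1. Fitted as met over non-met, log2 fold changes were 0.17 (SE 0.25) for *Robo4* and 0.59 (SE 1.64) for *Robo1* (edgeR voomLmFit, adjusted P = 0.918 and 0.964).

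*Unc5b* (chr10:60762594-60831581), a netrin receptor of tip cells and arteries, had 3.52, 159.7 and 103 CPM in met 1 to 3, 18.1, 87.1 and 107 CPM as lowest, median and highest non-met values, and 85.7 and 1.06 CPM in the controls. Met 1 and control 2 were low, with 8 and 6 reads. Fitted as met over non-met, its log2 fold change was 0.46 (SE 1.3, edgeR voomLmFit, adjusted P = 0.968), while the unweighted mean difference was of the other sign, -0.52.

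*Plxnd1* (chr6:115954811-115995339), a plexin of developing endothelium that receives semaphorin signals, had 1407, 1787 and 1258 CPM in met 1 to 3, 1192, 1570 and 2920 CPM as lowest, median and highest non-met values, and 1948 and 1142 CPM in the controls. All groups overlapped, with non-met 4 the highest library. The weighted fit put its met over non-met log2 fold change at -0.28 (SE 0.11, unadjusted P = 0.0246, edgeR voomLmFit adjusted P = 0.593).

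*Plxna2* (chr1:194619791-194816869), a plexin for class 3 and class 6 semaphorins, had 57.7, 144 and 147 CPM in met 1 to 3, 92.2, 132 and 456 CPM as lowest, median and highest non-met values, and 178 and 159 CPM in the controls. Met 1 was the lowest of all libraries and the 3 met libraries lay below both controls. For met over non-met the fitted log2 fold change was -0.22 (SE 0.73, edgeR voomLmFit, adjusted P = 0.973).

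Of the semaphorins, *Sema3g* (chr14:31217873-31230352), a secreted ligand of arterial endothelium, had 61.2, 91.7 and 89.8 CPM in met 1 to 3, 17.8, 94.6 and 204 CPM as lowest, median and highest non-met values, and 109.9 and 23.7 CPM in the controls. *Sema6a*, a transmembrane ligand of A-type plexins, had 269, 192 and 187 CPM in met 1 to 3, 91.5, 282 and 398 CPM as lowest, median and highest non-met values, and 255 and 221 CPM in the controls. For both genes the met libraries lay within the non-met range. Summed arterial markers (14 genes, *Efnb2*, *Unc5b* and *Sema3g* among them) also overlapped, at 902.5 to 1367 CPM in met, 650.5 to 1257 in non-met and 708 to 910.3 in control libraries. Fitted as met over non-met, log2 fold changes were 0.25 (SE 0.99) for *Sema3g* and -0.43 (SE 0.50) for *Sema6a* (edgeR voomLmFit, adjusted P = 0.976 and 0.875). The sign of *Sema3g* turned in 6 of 27 alternatives, to -0.89 with the mouse pool as a fixed block.

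Since met and non-met marrow of pools 2, 3 and 4 came from the same animals, the difference was also taken within each pool. *Plxna2* was lower in met than in non-met ECs in 3 of 3 pools, with differences of -1.14, -1.66 and -1.28 in pools 2, 3 and 4 on the log2 CPM scale (mean -1.36, SD 0.27). *Sema3g* was below the non-met mean in 3 of 3 pools, with differences of -0.20, -0.81 and -1.18 (mean -0.73, SD 0.50), although in pool 2 met 1 (61.2 CPM) lay above non-met 6 (32.9 CPM). Over all genes, 11.2% were below 0 in all 3 pools and 10.6% above, against 2 and 0 of the 10 guidance genes. The other 8 genes differed in sign between pools, with *Efnb2* between -1.64 in pool 2 and 3.09 in pool 3 and *Unc5b* between -3.63 in pool 2 and 2.48 in pool 4. With the pool as a fixed block, 0 of the 10 genes passed, and *Plxna2* had a log2 fold change of -1.46 (edgeR voomLmFit, adjusted P = 1).

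**Figure D2:**
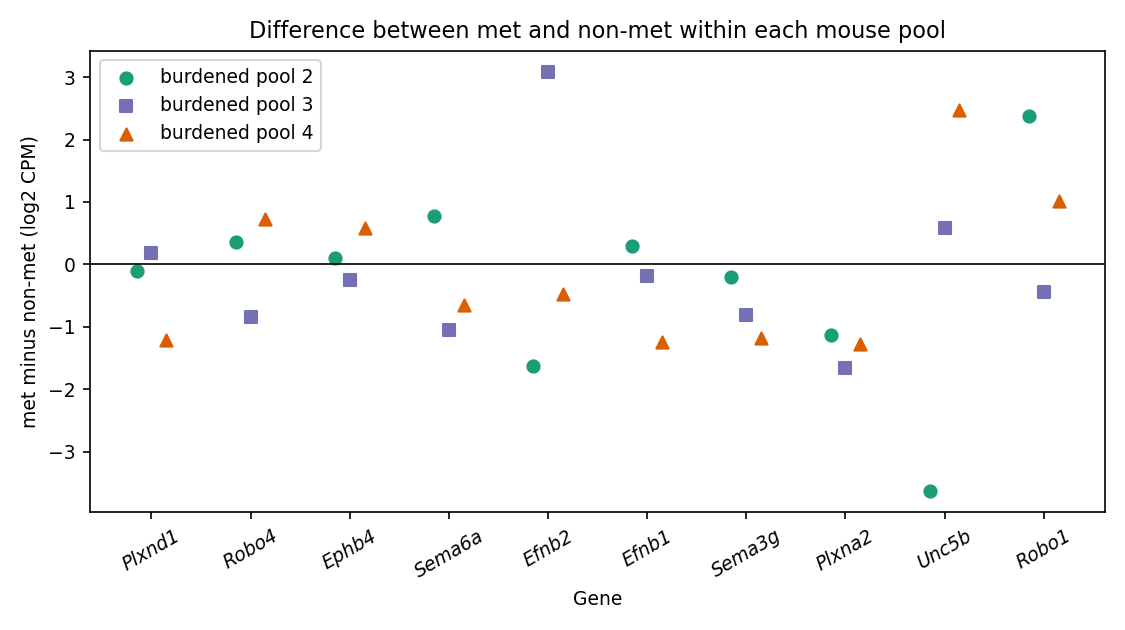
Difference in log2 CPM between the met library and the mean of the non-met libraries of the same mouse pool (vertical axis), for each guidance gene and the 3 pools with both kinds of library. *Plxna2* and *Sema3g* lie below 0 in all 3 pools, and the other genes fall on both sides.

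The spread between libraries of one pool and one group gave a measure of repeatability. Between the 2 non-met libraries of pool 1 and those of pool 2, log2 CPM of *Plxnd1* differed by 0.51 and 0.09, of *Robo4* by 0.49 and 0.056, and of *Ephb4* by 1.12 and 0.036. The same pairs differed by 9.64 and 4.45 for *Robo1* and by 7.81 and 0.91 for *Efnb1*. For *Robo1* these gaps exceeded each of its within-pool differences between met and non-met. The pairs differed by 1.08 and 2.19 for *Sema3g*, about as much as its largest within-pool difference or more, and by 0.23 and 0.57 for *Plxna2*, less than each of its 3.

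Compared with ECs of tumour-free mice, met ECs had 1 guidance gene higher and 1 lower by the weighted fit, *Ephb4* and *Plxnd1*, where 0.686% and 0.511% of all genes were called in these directions. *Ephb4* rose by 1.04 on the log2 scale (SE 0.24, edgeR voomLmFit, adjusted P = 0.0287), although met 1 lay below control 1. *Plxnd1* had a fitted log2 fold change of -0.56 (SE 0.0785, edgeR voomLmFit, adjusted P = 7.82e-05), yet its unweighted group means were 10.52 and 10.54 log2 CPM. Control 1 carried 83.6% of the control weight for *Ephb4* and 100% for *Plxnd1*, and met 3 carried 71.7% and 85.8% of the met weight. Unweighted, the means differed by 0.96 for *Ephb4* and by -0.023 for *Plxnd1* (exact two-sided permutation tests over 10 splits, P = 0.3 and 1, where 0.1 is the smallest possible). The quasi-likelihood test, DESeq2 and limma-trend called 0 of the 10 genes, against 0.0837%, 2.26% and 0.0753% of all genes. Summing the libraries of 1 pool and group also ended both calls, where 0.464% of all genes were called. There adjusted P was 0.166 for *Ephb4* and 0.261 for *Plxnd1* (edgeR voomLmFit). Summed sinusoidal markers (12 genes, *Ephb4* among them) were lower in met, at 6847 to 9773 CPM, than in control libraries, at 10880 to 13660 CPM, and their part in the result was not tested. Leaving out control 1 ended both calls, with *Plxnd1* turned to 0.22 (edgeR voomLmFit, adjusted P = 0.701, range over alternatives 1.06e-07 to 1) and *Ephb4* at a larger 1.96 (adjusted P = 0.154, range 3.85e-06 to 1), and leaving out met 3 also ended both. Control 1 was 1 of the 2 libraries with low epithelial markers, and with a term for these sets *Plxnd1* stood at -0.22 (edgeR voomLmFit, adjusted P = 0.591) and was no longer called, while *Ephb4* was.

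**Figure D3:**
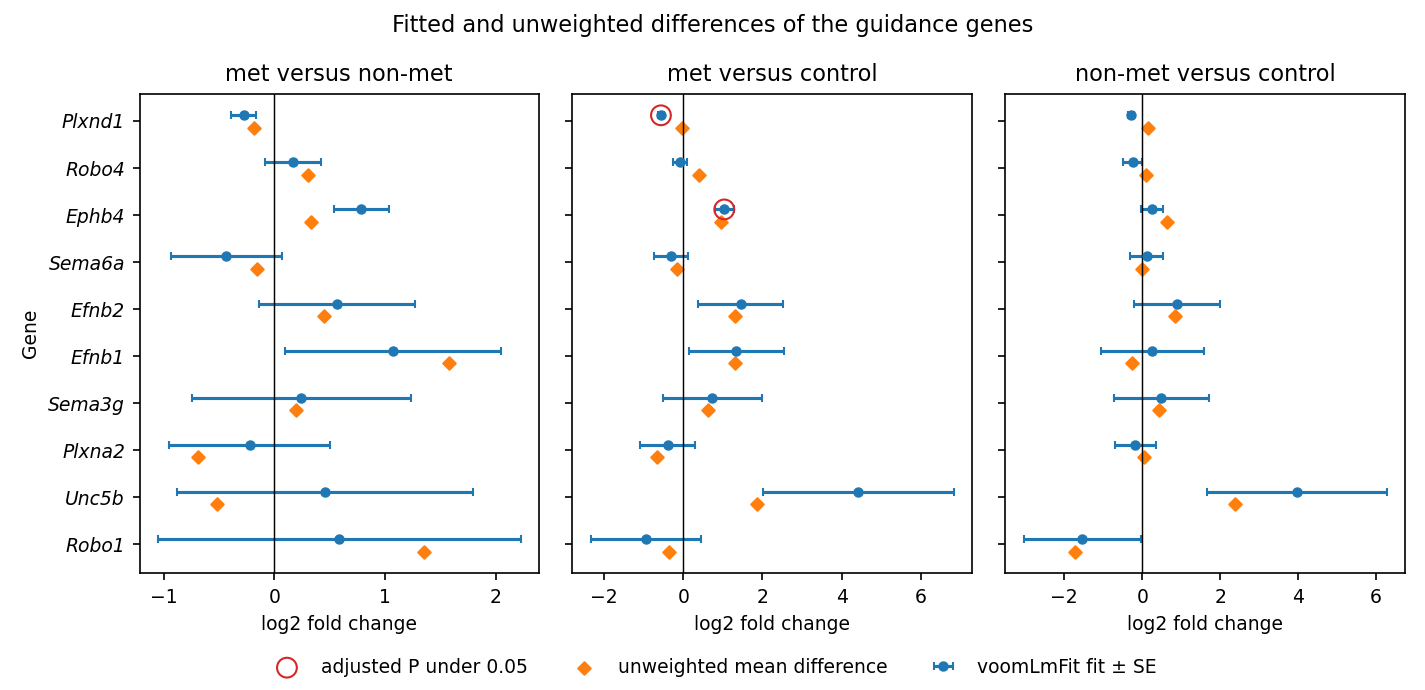
Log2 fold change of each guidance gene (horizontal axis) in the 3 comparisons, as the weighted fit with its SE (circles with bars) and as the unweighted difference of mean log2 CPM (diamonds); red rings mark adjusted P under 0.05. Rings stand at *Ephb4* (1.04) and *Plxnd1* (-0.56) in met versus control, and the *Plxnd1* diamond there lies at -0.023.

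**Figure D4:**
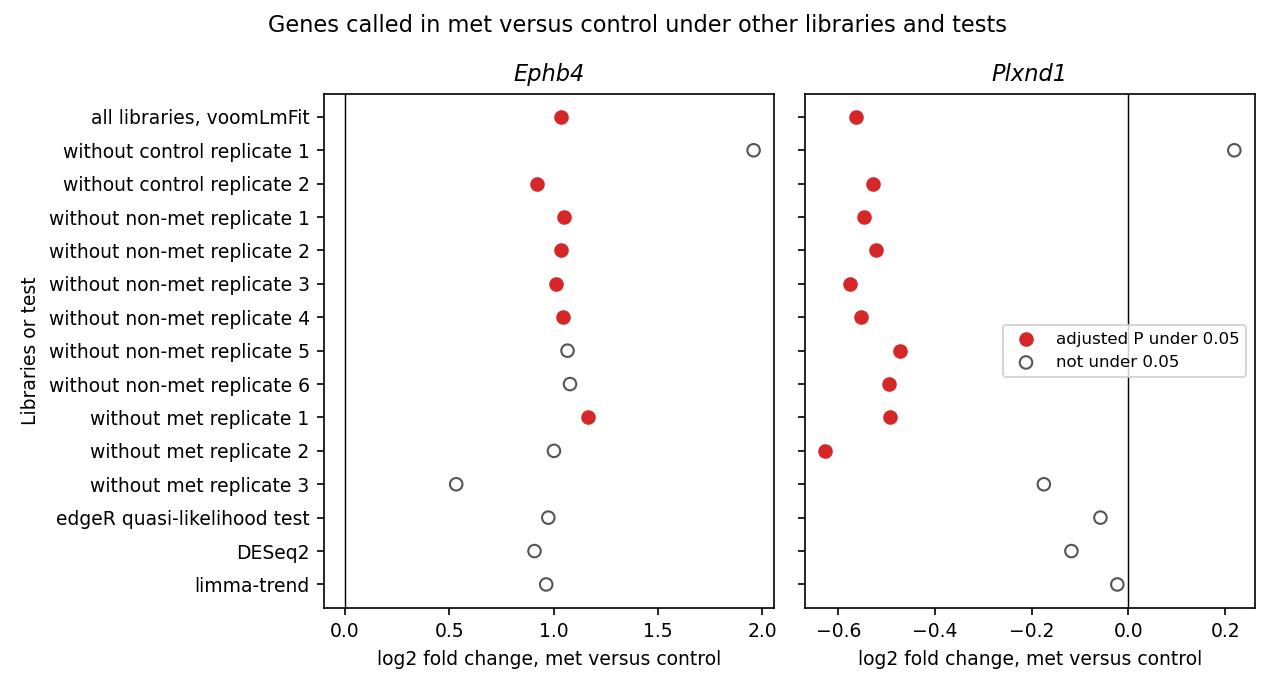
Log2 fold change between met and control libraries (horizontal axis) of *Ephb4* and *Plxnd1* with all libraries, with each library left out and under 3 other tests; filled points have adjusted P under 0.05. *Ephb4* stayed above 0 throughout, from 0.53 to 1.96, while *Plxnd1* ranged from -0.63 to 0.22 when libraries were left out.

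For 2 genes met and control libraries did not overlap, 1 of them higher and 1 lower, against 8.43% and 12.3% of all genes in these directions. *Efnb1* was higher in met, with its lowest met library at 157 CPM beside 156 CPM in control 1, and *Plxna2* was lower in all 3 met libraries than in both controls. Unweighted mean differences were 1.31 for *Efnb1* and -0.65 for *Plxna2* (exact two-sided permutation tests, P = 0.1 and 0.4), and 0.1 was the smallest P of all 30 such tests on the guidance genes. The *Efnb1* difference was 2.43 without control 1 and 0.21 without control 2. The other unweighted differences between met and control were 1.29 for *Efnb2*, -0.36 for *Robo1*, 0.39 for *Robo4*, 1.85 for *Unc5b*, 0.64 for *Sema3g* and -0.15 for *Sema6a*. Control 2, with 6 *Unc5b* reads, decided several of them: without it *Unc5b* stood at -1.09, *Robo4* at -0.16, *Sema3g* at -0.45 and *Efnb2* at 0.015. Without control 1 the same genes stood at 4.715, 0.962, 1.735 and 2.59.

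Non-met ECs were compared with the same 2 controls, so this comparison and the last share samples. None of the 10 genes passed (voomLmFit, 0.636% of all genes called), and the quasi-likelihood test, DESeq2 and limma-trend also called 0, against 0.117%, 2.63% and 0.067% of all genes. At an unadjusted P under 0.05, *Plxnd1* alone passed, against 17% of all genes. Every gene overlapped between the groups, while 6.29% of all genes did not. The lowest adjusted P was that of *Plxnd1*, with a fitted log2 fold change of -0.29 (SE 0.0832, edgeR voomLmFit, adjusted P = 0.0883) and an unweighted difference of the other sign, 0.16 (exact two-sided permutation test over 28 splits, P = 0.643). *Ephb4* had a fitted log2 fold change of 0.25 (SE 0.29, edgeR voomLmFit, adjusted P = 0.620). Unweighted differences between non-met and control were -0.27 for *Efnb1*, 0.84 for *Efnb2*, -1.72 for *Robo1*, 0.085 for *Robo4*, 2.37 for *Unc5b*, 0.039 for *Plxna2*, 0.44 for *Sema3g* and 0.006 for *Sema6a*. Without control 2, those of *Efnb2*, *Robo4*, *Unc5b* and *Sema3g* turned to -0.46, -0.49, -0.60 and -0.67. Without control 1, the differences of the same genes were 2.115, 0.632, 5.194 and 1.52. That of *Efnb1* was 0.90 without control 1 and -1.40 without control 2.

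The sort markers are given beside these sizes. Every group was sorted for high CD31 and EMCN, so they are not a neutral reference. *Pecam1*, which encodes CD31, had 2297, 2595 and 3162 CPM in met 1 to 3, 1131, 1703 and 2427 CPM as lowest, median and highest non-met values, and 1247 and 972 CPM in the controls. It rose by 0.89 (SE 0.13) between met and non-met (edgeR voomLmFit, adjusted P = 0.000455) and was higher in met in 3 of 3 pools, although the quasi-likelihood test, DESeq2 and limma-trend gave adjusted P = 0.563, 0.593 and 0.911. Met 3 carried 99.8% of the met weight for *Pecam1* and non-met 2 carried 66% of the non-met weight. *Emcn*, which encodes endomucin, had a log2 fold change of 0.49 (SE 0.20) in the same fit (edgeR voomLmFit, adjusted P = 0.593). Over controls, *Pecam1* rose in met by 1.342 (SE 0.0149) and *Emcn* by 0.91 (SE 0.11; edgeR voomLmFit, adjusted P = 8.9e-27 and 1.68e-05), with 99.9% and 92.1% of the control weight in control 1. For these, limma-trend gave adjusted P = 0.0983 and 1, the quasi-likelihood test 0.413 and 0.904, and DESeq2 0.0546 and 1.

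The other genes of these pathways were examined as a list of 86 ephrins, Eph receptors, Slits, Robos, netrins, semaphorins, plexins, neuropilins and signal relays, of which 8 had no read and 61 were tested. Between met and non-met, 0 of 61 passed (voomLmFit), beside 0.418% of all genes. Between met and control 2 passed as higher and 1 as lower, beside 0.686% and 0.511% of all genes. Between non-met and control 1 passed as higher and 0 as lower, beside 0.184% and 0.452% of all genes. *Sema3a*, a secreted semaphorin that binds neuropilin-1, had 541, 567 and 569 CPM in met 1 to 3, 548, 757 and 1263 CPM as lowest, median and highest non-met values, and 230 and 261 CPM in the controls, so that every library of burdened mice exceeded both controls. It rose in met by 1.25 (SE 0.26) and in non-met by 1.59 (SE 0.24) over controls (edgeR voomLmFit, adjusted P = 0.012 and 0.000567). For the second of these, DESeq2 gave an adjusted P of 0.00125, the quasi-likelihood test 0.398 and limma-trend 0.141, and without control 1 no list gene was called between non-met and control (edgeR voomLmFit).

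*Sema3f*, a secreted ligand of neuropilin-2, had 463, 642 and 841 CPM in met 1 to 3 and 329 and 203 CPM in the controls. It rose in met by 1.38 over controls (SE 0.29, edgeR voomLmFit, adjusted P = 0.0109). Its non-met libraries, at 385.4 to 705.5 CPM, also lay above both controls (1.075, SE 0.322, edgeR voomLmFit, adjusted P = 0.101). *Nrp1* is the neuropilin that serves *Sema3a* and vascular endothelial growth factor. It had 551, 483 and 311 CPM in met 1 to 3 and 754 and 686 CPM in the controls. In met it fell by 1.01 (SE 0.21, edgeR voomLmFit, adjusted P = 0.011). Its non-met libraries, at 337.3 to 619.7 CPM, also lay below both controls (-0.677, SE 0.21, edgeR voomLmFit, adjusted P = 0.11). Non-met and control libraries did not overlap for 6.29% of all genes. Between met and non-met, adjusted P was 0.806 for *Sema3f* and 0.816 for *Nrp1* (edgeR voomLmFit). Met and control libraries of these 3 genes did not overlap, which also held for 8.43% of all genes as higher and 12.3% as lower, and for 12 and 9 of the 61 list genes. The 3 calls were lost with the quasi-likelihood test, DESeq2 or limma-trend, and also without control 1, met 2 or met 3. Under those 3 tests the log2 fold changes were 1.09 to 1.19 for *Sema3a*, 1.22 to 1.29 for *Sema3f* and -0.76 to -0.68 for *Nrp1*.

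Known partners of the guidance genes differed widely in level. *Nrp2*, a co-receptor for class 3 semaphorins, had a median of 494 CPM in met, 469 in non-met and 421 in control libraries. *Slit2*, a Robo ligand, had 398 reads in control 1 and 0 in the other 10 libraries, and *Slit3* had reads in 7 libraries. *Ntn1*, which encodes netrin-1, had reads in all 11 libraries with medians of 15.2 CPM in met, 55.6 in non-met and 21.6 in controls. *Ephb2* held at most 3 reads in any library. *Plxna4* had medians of 163 CPM in met, 74.4 in non-met and 44.8 in controls.

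The genes whose log2 CPM followed a guidance gene most closely over the 11 libraries were sought among 1894 genes with at least 10 reads in every library. This was done for 7 guidance genes, since *Efnb1*, *Robo1* and *Unc5b* fell below 10 reads in some library, as a description across libraries that differ in depth. *Efnb2* was closest to *Ddah2* (Pearson r = 0.89) and *Calcrl* (0.84), and *Ephb4* to *Ctsd* (0.89) and *Itga9* (0.84). *Plxnd1* was closest to *Clic4* (0.85), *Robo4* to *Arhgef3* (0.81), *Plxna2* to *Tnn* (0.89), *Sema3g* to *Picalm* (0.89) and *Sema6a* to *Ppp1cb* (0.90). Among the guidance genes themselves the highest r was 0.64, between *Ephb4* and *Unc5b*, and the lowest was -0.35, between *Efnb2* and *Sema6a*.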

How the data were processed

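RNA-seq counts per Entrez gene were deposited by the authors, who aligned reads to mm10 and counted them with featureCounts, with no normalisation. Strandedness is not given in the sources used here. Of 27179 rows, 1886 without a gene name, 35 ribosomal and 1794 predicted genes were left out (1.94 to 15.7% of a library's counts), and 23464 were kept. Total counts were 733342 to 19539761 per library. With edgeR 4.0.16 and limma 3.58.1 in R 4.3.3, genes were filtered by filterByExpr (minimum count 10, total 15), scaled by TMM and fitted by voomLmFit with sample weights over all 11 libraries, with Benjamini-Hochberg adjustment over 11949 genes and a threshold of 0.05. The edgeR quasi-likelihood test and DESeq2 1.42.0, limma-trend, other scalings, filters and library sets were alternatives. log2 CPM and log2 RPKM used a prior count of 2, and exact permutation tests compared unweighted means. Scripts were tested on simulated data.

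Met and non-met libraries of one labelled mouse pool came from the same animals, so the pool pairs them; Spearman correlations of deviations within a pool were -0.0204 to 0.0217, each below the highest value with another pool (0.0246 to 0.0706). Libraries of a pool share animals, so P values measure the spread between libraries. Comparisons with controls rest on 2 libraries. The genes and lists were chosen with earlier results of these data known. All 10 genes were named in every comparison, other list genes where they passed the threshold (up to 5 per direction), partners by level, and the 2 nearest genes by Pearson r. Positions and promoters came from RefSeq GRCm38.p6.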

Additional observations from a re-analysis of the deposited data

Results flagged for a closer look

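Among the 10 guidance genes, the 6 non-met libraries of 1 gene held a library far from the others: *Efnb1* in non-met 5 stood at -1.49 log2 CPM (0 reads), where the nearest non-met library was at 6.33. The gap was 0.748 of the whole range, above Dixon's 95% critical value for a group of 6. Chance marks about 1 in 20 such groups, and 10 were examined.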

How the results depend on the processing

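Control comparisons rest on 2 libraries, and the lowest totals are in non-met 4 to 6. Over 30 fitted log2 fold changes, 672 of 770 alternative values kept direction and side of the threshold, 19 lost and 9 gained the call and 70 changed sign. Of the unweighted differences, 468 of 480 moved by less than 1 SD, and the other 12 were among the 40 control differences with a control left out. The causes were not tested.

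Between met and non-met, the number of the 10 genes called went from 0 to 1 with RLE size factors (*Plxnd1*, -0.39, edgeR voomLmFit adjusted P = 0.0364, range 1.29e-05 to 1 over alternatives; 0.377% of all genes called) and to 2 (*Ephb4* and *Plxnd1*) within the library set that holds the met libraries (69 of 13789 genes); it ranged from 0 to 2 when leaving out each library, with 2 without control 1 (0.619% of all genes) and 1 without control 2 (0.518%). DESeq2 called 2 of the wider list against 0, where it called 3.23% of all genes. Signs turned for *Robo1* (-0.27) and *Sema3g* (-0.32) in the quasi-likelihood test, for *Efnb1* (-0.11), *Robo1* (-0.37) and *Sema3g* (-0.45) in DESeq2, for *Unc5b* (-0.52) in limma-trend, for *Robo1* with libraries of 1 pool and group summed (-0.33), for *Sema3g* with a term for the epithelial library sets (-0.16) or within the met set (-0.31), and for *Robo1* with only libraries over 2000000 counts (-0.45), an alternative chosen after seeing the data. With the mouse pool as a fixed replicate block, 0 of the 10 genes were called, and *Efnb1* (-0.56), *Ephb4* (-0.035), *Robo4* (-0.22) and *Sema3g* (-0.89) turned; the block changed no call. As a random replicate block, pools gave 0 calls here, 2 between met and control and 0 between non-met and control. Leaving out each library gave 0.40 (without non-met 5) to 1.49 for *Efnb1*, 0.33 (without met 3) to 0.97 for *Ephb4*, -0.20 to 1.12 for *Efnb2*, -0.15 to 2.38 for *Robo1*, -0.033 to 0.29 for *Robo4*, -1.82 to 1.27 for *Unc5b*, -0.34 to 0.12 for *Plxnd1*, -0.62 to 0.13 for *Plxna2* and -0.35 to 0.70 for *Sema3g*.

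Between met and control, the 2 calls became 0 by the quasi-likelihood test, DESeq2, limma-trend, with pool libraries summed, with only the 2 groups compared or with only libraries over 2000000 counts, and 1 (*Ephb4*) with the epithelial term. Over the fits just named with 0 calls, *Ephb4* stood at 0.909 to 1.158 and *Plxnd1* at -0.377 to -0.023. Leaving out libraries gave 0 to 2 calls, 0 without control 1 or met 3 and 1 without non-met 5, non-met 6 or met 2; *Plxnd1* ran from -0.63 to 0.22. The 3 calls of the wider list became 0 in each of these fits, epithelial term included, and ranged from 0 to 4 when leaving out libraries. Between non-met and control, library size scaling gave 1 call of the 10 and 2 of the list against 0 and 1, and fits without sample weights gave 2 of the list, while calls over all 11949 genes went from 76 to 160 and 140, and the quasi-likelihood test and limma-trend gave 0. Leaving out libraries gave 0 to 1 of the 10 and 0 to 3 of the list. *Plxnd1* turned to 0.17 (quasi-likelihood), 0.28 (DESeq2) and 0.16 (limma-trend), with -0.32 to 0.49 when leaving out libraries, and *Ephb4* to -0.003 with library size scaling. A fixed pool block could not be fitted for either control comparison, since pools are nested in the groups.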
